A study of Mus musculus with 11 samples.

Results

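Of the 66044 regions of open chromatin in mouse CD8 T cells activated for 3 days, 25997 (39.4%) were found in the effector library and in none of 10 other libraries from naive, antigen-experienced and day 9 cells. They were chosen on the measured peaks themselves: peaks of all 11 lists sharing 1 bp or more were joined into 111041 regions, and a region was kept if the effector list held a peak in it and no other list did. These effector-only regions were 23.4% of all merged regions. Their level is the normalized tag count of the effector peak, the sequenced tags inside that peak, scaled to a library of 10 M (mega) tags. Since the choice rests on presence in 1 list and absence from the others, their number and levels are a description, and no test was made of them.

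All cells came from spleen and carried a YFP reporter of Tcf7, which encodes TCF-1, a factor of naive and memory T cells. Naive and antigen-experienced cells were sorted directly from spleen, both CD62L+ and YFP+, the naive ones CD44- and the antigen-experienced ones CD44+, with 1 library each. The effector library, also a single one, came from cells activated outside the animal for 3 days. The other 8 libraries were of cells that had been split by YFP at day 3, put back in culture and split a second time at day 9: YFP-high at both sorts (high_to_high, 2 libraries), YFP-low at both (low_to_low, 3 libraries), and low at day 3 but high at day 9 (low_to_high, 3 libraries). The stimulus, the age of the animals and the origin of the replicates (separate animals or cultures, or 1 of either) are not given in the sources used here. With 1 effector library, the day 3 state and that library's preparation cannot be told apart, and neither can a site open in few cells and a site weakly open in many.

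ATAC-seq uses a transposase that inserts into accessible DNA, so that enhancers and promoters in use appear as peaks. When a T cell is activated, calcium and kinase signals from the antigen receptor bring NFAT and AP-1 (dimers of Fos, Jun and BATF proteins) to the DNA, where they act with RUNX and other factors already present in T cells. Many enhancers are occupied only while these signals last, and others stay open in the cells that remain.

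Total tags ran from 20.8 M to 59.97 M over the libraries, with 53.2 M in the effector library, the second deepest. Of the effector library's tags 9.08% lay in peaks, against 9.01 to 15.75% in the others, and its median region had a level of 9.68, the lowest of the 11. The weakest peak of a list had a level of 2.25 to 4.32. The peak caller also asked for 4-fold more tags than the surrounding 10 kb, which removed 53.3% of the effector library's putative peaks and 36.4 to 49.9% of the others'. Absence from a list therefore does not show that a site was closed. Of the genes that define the cell type, Cd8a, Cd8b1, Cd3d, Cd3e and Cd3g all had effector regions, while the B cell gene Cd79b and the myeloid gene Lyz2 had none. Other genes of those lists had some, with 69 effector regions over the B cell list (28 of them at Ebf1) and 68 over the myeloid and dendritic list.

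Promoters are shown first, since they are the only effector-only regions whose sequence was at hand. The strongest effector-only regions that overlapped a promoter window (250 bp before to 50 bp after a start site, 32619 windows, RefSeq on GRCm38.p6, which is mm10) lay at Zbtb32 (47.3), Gm38326 (38.4), 4930542C21Rik (37.6), Sox5os3 (35.7), Trmt10c (35.6), Acaa1a (35.2), Alkbh3os1 (33.9) and Lyrm1 (33.7). The windows of Trmt10c, Acaa1a and Lyrm1 also held another region, and those of the others did not. Zbtb32 encodes a zinc finger repressor of cytokine genes, Sox5os3 and Alkbh3os1 are transcripts opposite to Sox5 and Alkbh3, and Acaa1a is a peroxisomal thiolase. Each of the sequences that follow is the part of the effector-only region that lies within the 250 bp before the start site, 5′ to 3′ on the gene's strand, and capitals mark a match to the AP-1 motif TGANTCA. Gm38326, 4930542C21Rik, Sox5os3 and Alkbh3os1 are shown because they hold the match, Zbtb32 as the strongest without it, and Klre1 (29.7), a lectin-like receptor gene of natural killer cells, as the strongest without it among the promoters of genes on the lists described further on that had no other region in the window.
Zbtb32, chr7:30593025-30593192, minus strand: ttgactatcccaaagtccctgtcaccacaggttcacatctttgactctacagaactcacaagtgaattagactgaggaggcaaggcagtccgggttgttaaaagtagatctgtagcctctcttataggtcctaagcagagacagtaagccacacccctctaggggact
Gm38326, chr3:60788111-60788279, plus strand: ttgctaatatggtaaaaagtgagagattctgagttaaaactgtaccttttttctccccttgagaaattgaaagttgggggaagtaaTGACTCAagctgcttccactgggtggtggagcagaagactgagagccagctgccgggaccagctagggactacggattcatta
4930542C21Rik, chr16:38017073-38017229, plus strand: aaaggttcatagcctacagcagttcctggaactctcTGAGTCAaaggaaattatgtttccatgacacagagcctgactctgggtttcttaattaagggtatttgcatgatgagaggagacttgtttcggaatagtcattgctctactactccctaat
Sox5os3, chr6:144672618-144672722, plus strand: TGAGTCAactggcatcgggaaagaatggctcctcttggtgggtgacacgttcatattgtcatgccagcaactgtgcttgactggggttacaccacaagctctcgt
Alkbh3os1, chr2:93979839-93980011, plus strand: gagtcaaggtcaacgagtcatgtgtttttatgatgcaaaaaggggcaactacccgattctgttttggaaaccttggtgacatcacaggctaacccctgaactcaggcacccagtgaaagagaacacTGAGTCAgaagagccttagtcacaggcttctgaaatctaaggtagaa
Klre1, chr6:129577995-129578167, plus strand: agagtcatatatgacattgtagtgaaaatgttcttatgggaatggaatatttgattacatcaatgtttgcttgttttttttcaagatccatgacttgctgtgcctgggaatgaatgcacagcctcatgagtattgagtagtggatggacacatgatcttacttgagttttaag

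The AP-1 match was more frequent in promoters with an effector-only region than in any other class of promoter compared. Of 360 windows that held an effector-only region and no other region, 91 (25.3%) held TGANTCA on either strand. The share was 35.8% (39 of 109) where the effector-only region had a level of at least 8.64, and 20.7% (52 of 251) where it was lower. It was 4.72% in 10298 windows with an effector region shared with another list, 9.49% in 19916 windows with no region and 7.85% in all windows. Regions held by 1 other library alone did not show it to that extent, at 7.32% of 164 windows with a naive-only region and 3.23% of 62 windows with a region of high_to_high replicate 2 alone. RUNX (TGTGGT) was found in 33% of the windows with a stronger effector-only region, 15.9% of those with a weaker one and 16.6% of all windows. The core of NFAT (GGAAA), at 64.2% of stronger windows against 61.6% of all, and the E-box (CANCTG), at 57.8% against 51.4%, were near their general frequency.

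The SP/KLF motif GGGCGG, common in housekeeping promoters, lay between the other classes. It was found in 32.2% of the 360 windows, in 67.3% of windows with a shared effector region and in 17.5% of windows with no region. The ETS motif CCGGAA was in 6.67%, 32.3% and 6.10% of the same classes. The median GC content was 52.7% in the 360 windows, 61.7% with a shared effector region and 48.3% with no region, and the windows' base composition moves with these shares. T-box (GGTGTGA), TCF/LEF (CTTTGAT), NF-kB (GGGNNTTCC), STAT (TTCNNNGAA) and E2F (TTTGGCG) matches were in 0.833 to 8.61% of the 360 windows and in 1.58 to 8.34% of all. Within the promoter windows, AP-1 matches lay at 1.87 per kb in the 30 bp on either side of the centre of an effector-only region, at 1.92 per kb in the bin 90 to 120 bp away on 1 side (15 matches) and 0.672 on the other (5 matches), and at 0.295 and 0.306 per kb 120 to 150 bp away. Around shared effector regions the density was 0.120 to 0.222 per kb at every distance. The counts behind these densities are small, with 16 matches in each of the central bins and 2 in each of the outer ones, and a match is a run of letters, not a bound site.

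**Figure D1:**
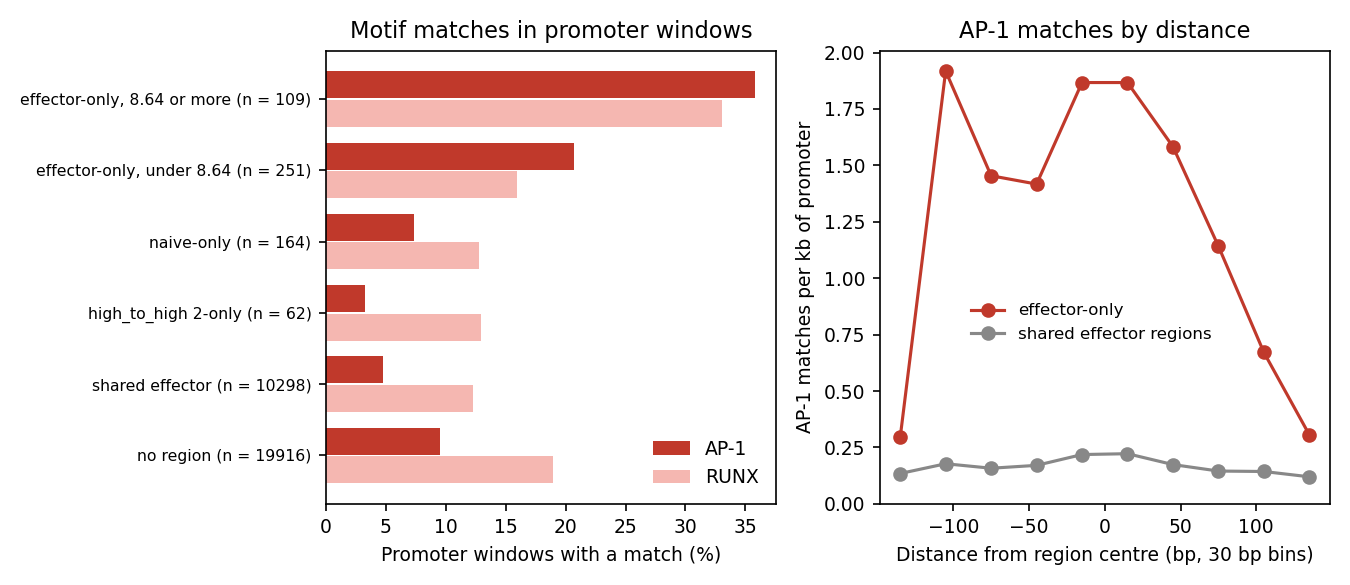
Left, the percentage of 300 bp promoter windows with a match to AP-1 (TGANTCA) or RUNX (TGTGGT) on either strand, by the class of region in the window, n being the number of windows. Right, AP-1 matches per kb of promoter sequence against the distance from the region's centre in bp; effector-only regions reach 1.92 per kb at their highest, and shared effector regions stay at or below 0.222.

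Most effector-only regions were low, and a minority stood well above the calling limits. Levels ran from 2.63 (14 tags) to 59.6 (317 tags), with a median of 7.05, a lower quartile of 4.42 and an upper quartile of 12.7. The effector regions shared with another list had a median of 12.1 and reached 737.9. Close to the calling limit, below 1.5 times the weakest effector peak (3.945, or 21 tags), lay 4302 effector-only regions (16.55%) and 2173 shared ones (5.43%). Among the lowest were regions in Slc24a3 (2.63) and Ndufaf2 (2.73). A further reading takes the weakest peak of each other list: 5881 effector-only regions (22.6%) were below 4.32, the highest of these limits, and could not have been called at the same level in that library.

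A group of 10615 effector-only regions (40.8%) had at least 8.64, which is 2 times that highest limit and equals 46 tags in the effector library and 18 in the shallowest one. Of these, 2764 reached 20 and 27 reached 50. By the caller's own measure, the authors' deposited fold over the local background, effector-only peaks of 15 to 30 had a median of 8.59 and shared effector peaks of the same level 8.05. Below 7.5 the medians were 5.79 and 5.69, and 31.2% of the effector-only and 32.03% of the shared peaks there were under 5-fold, close to the required 4-fold.

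**Figure D2:**
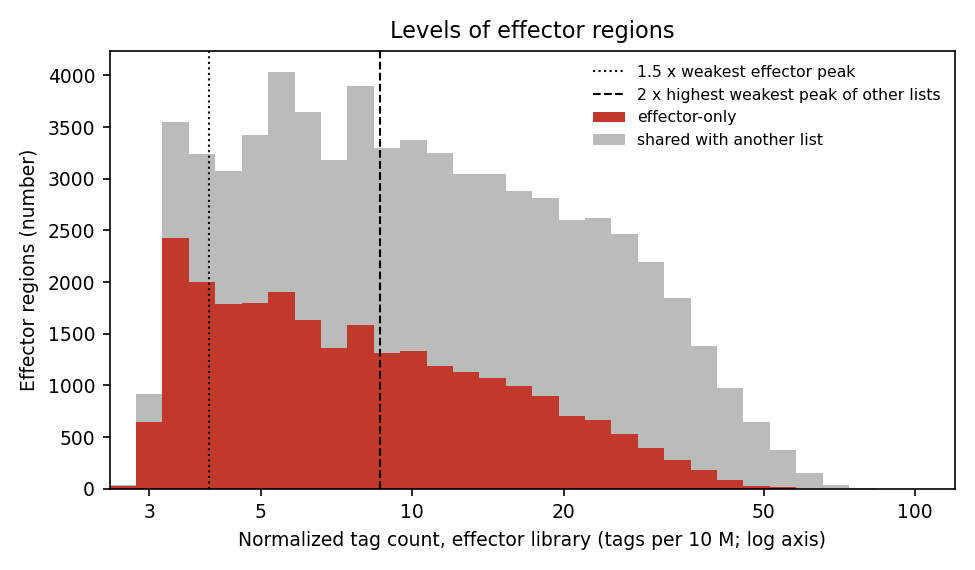
Number of effector regions by normalized tag count in the effector library (log axis; tags per 10 M), stacked as effector-only and shared with another list. The dotted line is 1.5 times the weakest effector peak (3.945) and the dashed line 2 times the highest weakest peak of the other lists (8.64); 4302 effector-only regions lie left of the dotted line and 10615 at or right of the dashed line.

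The share of regions held by no other library was higher in the effector library than in each of the other 10. It was 9.27% in the naive library (5322 regions), 3.42% in the antigen-experienced library and 0.715 to 4.175% in the day 9 libraries, with the highest in high_to_high replicate 2 (2592 regions), which was sequenced more deeply than the effector library. Day 9 libraries have relatives of the same state among the lists, and the effector library does not. Counting only regions absent from libraries of other groups gave 0.786 to 4.43% for them, with the other day 9 groups still among those groups. Against only the naive, antigen-experienced and effector lists, shares held by no other were 48.04% (effector), 17.87% (naive) and 8.20% (antigen-experienced). Of the regions of a day 9 library, 7.875 to 14.33% were in none of these lists. Restricted to regions of at least 20, the shares were 18.7% in the effector library (2764 of 14796), 3.18% in the naive library and 1.46% in high_to_high replicate 2.

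**Figure D3:**
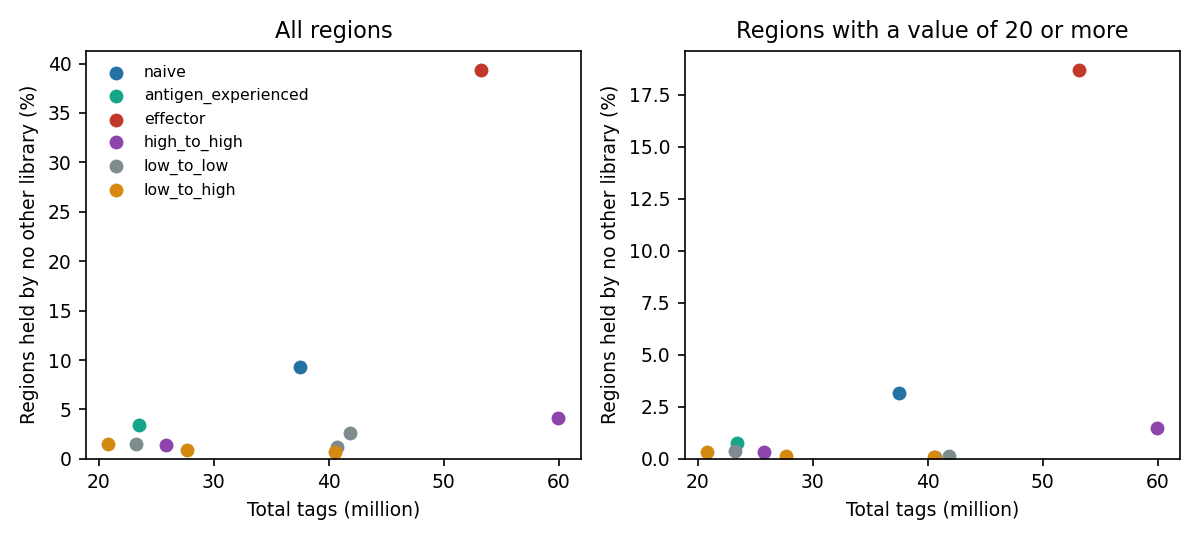
Percentage of each library's regions that no other library holds, against its total tags in M, for all regions (left) and for regions with a normalized tag count of at least 20 (right); each point is 1 library, coloured by group. The effector library lies at 39.4% and 18.7%, and the next highest, the naive library, at 9.27% and 3.18%.

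The effector-only share fell with level but stayed above the drop-out between replicates in each bin. It was 53.9% of effector regions under 7.5, 40.0% from 7.5 to 10, 37.0% from 10 to 15, 32.9% from 15 to 20, 23.8% from 20 to 30, 13.1% from 30 to 50 and 3.78% (27 of 714) at 50 and over. As a measure of drop-out, regions of a day 9 library that neither of the other 2 replicates of its group held were 12.2 to 34.7% under 7.5, 3.24 to 6.37% from 15 to 20 and 0.387 to 0.729% at 50 and over. In the high_to_high group, which has 2 replicates of unequal depth, the deeper library lacked a partner for 53.0, 15.8 and 1.94% in the same bins. Under 7.5 the effector-only share (53.9%) was close to that pair's. These yardsticks compare a library with 1 or 2 others, whereas an effector-only region is missing from 10.

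**Figure D4:**
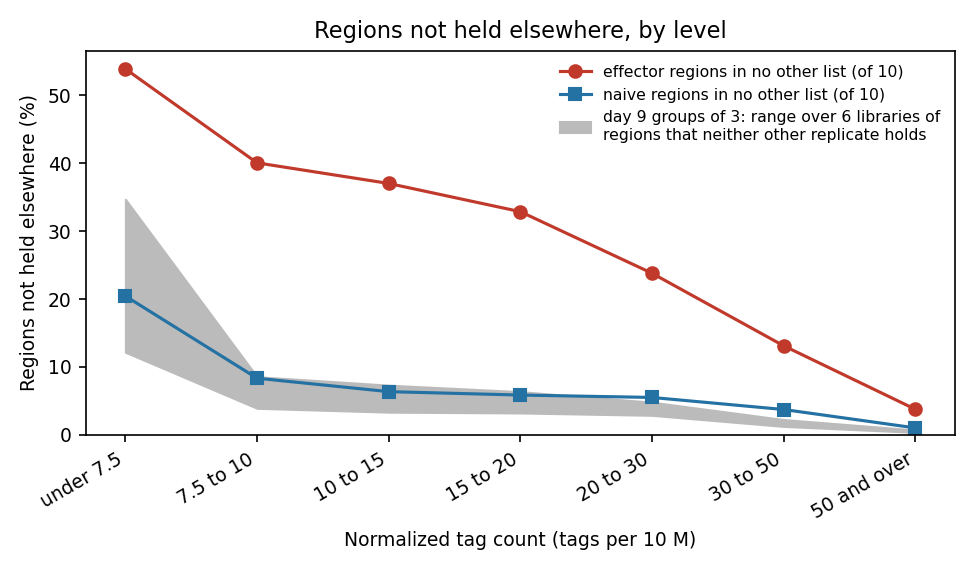
Percentage of regions not held elsewhere by normalized tag count (bins on the x axis): effector regions and naive regions in no other list, and, in grey, the range over the 6 libraries of the low_to_low and low_to_high groups of regions that neither other replicate holds. The effector line runs from 53.9% under 7.5 to 3.78% at 50 and over and lies above the grey range in each bin.

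Few effector regions that the splenocyte lists lacked were called at day 9. Of the 31729 effector regions in neither splenocyte list, the 25997 effector-only regions (81.9%) were in 0 of the 8 day 9 libraries, 1385 (4.37%) were in 1 and 1039 (3.28%) were in all 8. Those in all 8 had a median effector level of 11.8, against 7.05 for the effector-only regions. Among the regions of at least 8.64 the share in 0 day 9 libraries was 79.4% and that in all 8 was 4.92%. A day 9 library held 7 to 13.4% of the 31729 regions, the most in high_to_high replicate 2. The 3 YFP-low libraries held 8.23 to 12.1% and the other 4 YFP-high libraries 7 to 7.97%. The former had 48167 to 56668 regions, the latter 46358 to 49648, and high_to_high replicate 2 had 62079. The part of list size in these shares was not tested. Just outside the rule lay 2135 effector regions found in 1 other library, 535 of them in high_to_high replicate 2, 519 in the naive library and 330 in low_to_low replicate 2, with a median effector level of 7.61.

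Effector-only regions lay away from promoters and in gene-poor stretches more often than the effector regions other lists shared. Of the effector-only regions 368 (1.42%) overlapped a promoter window, against 8384 shared regions (20.9%) and 10.0% of all merged regions. At 8.64 or more the gap was wider, at 1.28% and 30.1%. A protein-coding gene span held 55.5% of effector-only and 62.7% of shared effector regions, and 9.17% against 3.71% had no protein-coding gene within 100 kb. The nearest region that was not effector-only lay at a median of 7096 bp, against 3279 bp from a shared effector region to its nearest neighbour of that kind. Within 346 bp of such a neighbour lay 6.61% of effector-only and 20.37% of shared effector regions. The caller set 346 bp as the smallest spacing of effector peaks, which limits neighbours that hold an effector peak at this distance. By chromosome the effector-only share of effector regions ran from 32.3% on chromosome 11 to 47.7% on chromosome 13.

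Effector-only regions, 23.4% of all merged regions, also came in runs, unbroken by another open region. How many such runs that share alone would give was not tested. Of the 16312 runs, 11097 were of 1 region (42.7% of effector-only regions), and 544 runs of 5 or more held 3485 regions (13.4%). The longest counted 22 regions over 415.2 kb at Sema6d, a semaphorin gene (2.91 to 24.4, median 4.33, 2 of them at 8.64 or more). A run of 20 over 738.1 kb, with Trps1 as the only gene within 100 kb of its regions, had a median of 6.91, and a run of 17 from Psd3 to Csgalnact1 one of 5.45. There were 2 runs of 15. The first (median 4.14) spanned 1186.9 kb, with Zeb2 as the only gene within 100 kb of any of its regions. The second (median 7.14) spanned 791.4 kb from Svep1 to Ecpas. The run of 17 at Ebf1, the gene of a B cell transcription factor, stood higher, with a median of 10.2 and 10 of 17 at 8.64 or more.

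The strongest effector-only regions lay at genes of varied functions, with Cdk6 of the cell cycle and Bach2 of T cell differentiation first. The highest was in Cdk6, a kinase that drives cells out of G1 (59.6; chromosome 5, 3494771 to 3494943). Next came a region in Bach2, a repressor that restrains effector differentiation (58.5; chromosome 4, 32250734 to 32250906). A region 1933 bp from Arid5a, which stabilises inflammatory mRNAs, had 57.1 and a region 7686 bp from S100a10, the partner of annexin A2, had 56.2. Gpr176 (58.0), Fggy (57.5), Garre1 (56.8), Clec11a (56.4), Mrpl58 (56.1), Lamc1 (56.0), Smg1 (55.5), E130308A19Rik (55.4), Vangl2 (53.7), Cubn (53.4) and Ncs1 (53.0) completed the 15 highest with a gene, counting 1 region per gene. These levels correspond to 282 to 317 tags. Each region was given to the nearest gene, which need not be the gene it controls.

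Cdk6 had 11 effector-only regions among its 22 effector regions. Along the locus they had 13.8, 9.12, 13.8, 11.8, 4.23, 6.49, 6.77, 4.61, 25.7, 13.5 and 59.6, so that 1 region stood far above the rest. The 11 shared effector regions had 4.51 to 37.7. Bach2 had 16 of 38, from 3.38 to 58.5 with a median of 17.15, and its 22 shared effector regions had a median of 22.9.

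Counted per gene, 8554 of 15613 genes with an effector region had an effector-only one, 2944 had 3 or more and 292 had 10 or more. Long genes led: Sox5 had 45 (81.8% of its effector regions), Lpp 44, Inpp4b, Pde4d and Rad51b 34 each, Sema6d 30, Cdkal1 and Rabgap1l 28 each, and Fars2 and Kcnq5 27 each. Their spans of 420.2 to 1301.8 kb hold more sites of any kind. By effector-only regions inside the gene per 100 kb of its span, among genes with at least 5, the densest after the predicted gene Gm9949 (18.9) were Ppp3r1, which encodes the regulatory subunit of calcineurin, the phosphatase that activates NFAT (17.04), and Gpr174 (14.7). Pik3cg, a phosphoinositide 3-kinase of leukocytes, followed with 14.2. Pla1a, Timd2, Rgs13, Rad54b, Tespa1 and Mrpl1 had 12.2 to 13.5. At Ppp3r1 7 of 9 effector regions were effector-only, all 7 at 8.64 or more, with a median of 9.59 and a highest level of 18. Tespa1, a protein of thymocyte receptor signalling, had 6 of 11.

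Counted by effector-only regions of 20 or more, a count picked after the values were seen, 15 genes had 6 or more, with spans of 45.4 to 599.2 kb. Lpp had 9. Bach2, the calcium channel gene Itpr1 and Nfkb1, which encodes the NF-kB subunit p50, had 8 each. Ptprc, the gene of CD45, had 7. The 10 genes with 6 each were Atxn1, the survival gene Bcl2, Cd47, the diacylglycerol kinase gene Dgkg, Foxp1, which keeps naive T cells quiescent, the receptor adaptor gene Lcp2, Pde4b, Rad51b, Tet2, which encodes a DNA demethylating enzyme, and Vcl. At Nfkb1 16 of 23 effector regions were effector-only and 15 of the 16 had at least 8.64, with a median of 18.95.

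Of effector regions with a gene and a level of at least 8.64, 28.0% were effector-only, and most T cell lists lay above that share. Genes of NFAT, NF-kB and early activation factors had 39 of 93 (41.9%), naive and memory genes 95 of 223 (42.6%), inhibitory receptors and exhaustion genes 35 of 83 (42.2%), chemokine receptors and integrins 43 of 107 (40.2%), effector transcription factors 42 of 108 (38.9%), T cell receptor signalling 65 of 168 (38.7%), effector molecules 41 of 108 (37.96%), AP-1, BATF and IRF factors 30 of 82 (36.6%), T cell identity genes 30 of 88 (34.1%), costimulatory receptors 26 of 77 (33.8%), and interleukin-2 and cytokine receptors 33 of 100 (33%). Genes of cell division, with 19 of 84 (22.6%), and of glycolysis and nutrient uptake, with 12 of 74 (16.2%), lay below it. Of the T cell and general lists, these had the lowest shares. Over effector regions of any level, where 37.98% of those with a gene were effector-only, some lists changed sides or lay near it: cytokine receptors had 35% (42 of 120), costimulatory receptors 37.6% (35 of 93) and effector molecules 39.4% (52 of 132). The other 8 T cell lists had 41.1 to 48.15%. Over all merged regions with a gene, 22.52% were effector-only. Above this lay inhibitory receptors (29.2%), NFAT and NF-kB factors (25.9%), chemokine receptors and integrins (24.7%) and effector molecules (23.96%). Effector factors (22.51%) were at it. Below lay naive and memory genes (21.7%), AP-1, BATF and IRF factors (21.3%), receptor signalling (19.9%), T cell identity (19.7%), costimulatory (17.95%) and cytokine receptors (16.5%). The shares are descriptions, and the regions of a list can share a gene. The lists were not matched for promoters, which were 1.28% of effector-only and 30.1% of shared effector regions at 8.64 or more. The part of promoters in the differences between lists was not tested.

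Lists of other cell types did not stay at the bottom. B cell markers had 15 of 30 (50%), CD4 and regulatory T cell markers 19 of 47 (40.4%), natural killer markers 13 of 36 (36.1%), myeloid and dendritic markers 8 of 35 (22.9%), and erythroid, mast and platelet markers 0 of 8. Over all merged regions of these lists the shares were 35.7, 23.5, 23.9, 18.1 and 19.5% in that order, against 22.52%. Of the 15 B cell regions 11 were at Ebf1, and 8 of the 18 genes had an effector-only region at any level. Pou2af1 (highest 16.2), Blnk (11.6) and Bank1 (11.4) had others. Pax5 had 2, of at most 4.51, and Ms4a1 1 of 3.38, while Cd22 had 0. The part of other cells in these shares was not tested.

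**Figure D5:**
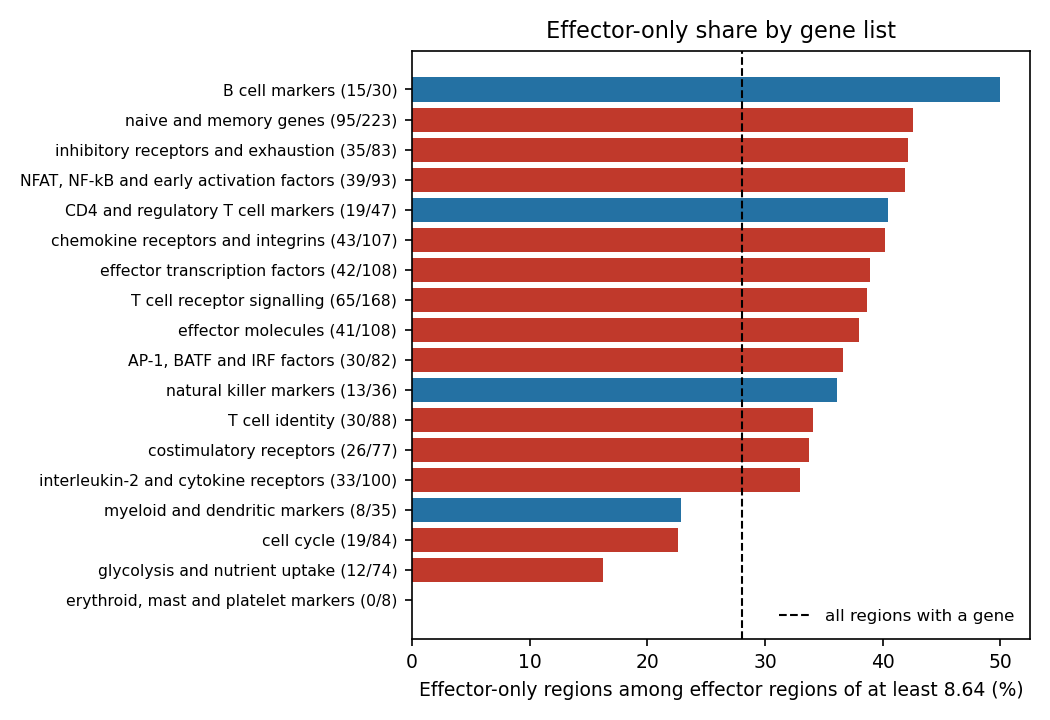
Percentage of effector regions with a normalized tag count of at least 8.64 that were effector-only, for T cell and general lists (red) and lists of other cell types (blue), with the numbers of effector-only and all such regions in brackets. The dashed line is the share over all such regions with a gene (28.0%), and the lists are not matched to it for promoters. The B cell list (50%) rests on 30 regions, 11 of its 15 effector-only ones at Ebf1.

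Among genes of effector molecules, Il10, Gzmb and Ifng had the highest effector-only regions. The counts at single genes below compare with 37.98% effector-only among all effector regions with a gene, and many rest on few regions. At Ifng, the interferon gamma gene, 10 of 23 effector regions were effector-only, on both sides of the gene and 6081 to 81265 bp from it, with 14.9, 5.73, 30, 19.7, 17.9, 13.2, 21.2, 6.86, 13.9 and 8.46 along the chromosome. The 13 shared effector regions there had a median of 20.7. At Gzmb, the gene of granzyme B, 4 of 8 were effector-only, with 32, 22.6, 25.9 and 7.14, and at Il10, which encodes an inhibitory cytokine, 3 of 7, with 40.2, 13.3 and 21.8. All of them lay outside the genes.

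On the list of AP-1, BATF and IRF factors, of which the AP-1 and BATF proteins bind the motif shown at the promoters, Batf3 had the highest region. At this BATF family gene 4 of 5 effector regions were effector-only, with 45.0, 34.8, 30.6 and 34.2, and the remaining one (25.4) was in all 10 other lists. Jun had 6 of 11 (highest 36.3) and Irf4, induced by receptor signals, 4 of 6 (highest 18.7). Maff (31.7), a small Maf protein, was the next in its list, with a region over its start site. The promoter window of Maff also held another region. Of the early activation factors, Nfat5 (43.5), Nr4a2 (37.2) and Nfatc2 (32.5) had the highest regions, and Nfatc1, the NFAT gene induced by its own pathway, had 4 of 6. Nr4a1, an orphan receptor gene induced within hours of stimulation, had 0 of 2.

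Transcription factors of effector and of naive cells had effector-only regions side by side with shared ones. At Prdm1, the gene of Blimp-1, 8 of 21 effector regions were effector-only, with 14.0, 33.1, 23.3, 22.0, 4.04, 9.12, 15.9 and 22.2. Stat4 (34.0) and Ikzf3 (23.7) were the other leaders of the effector factor list. Zeb2 had 13 of 20, Tbx21, which encodes T-bet, 2 of 5 and Eomes 2 of 6 (at most 7.52), while Runx3 had 0 of 5. On the naive and memory list, S1pr1 (44.9), the receptor by which T cells leave lymph nodes, and Ikzf1 (42.8) followed Bach2. Lef1 had 5 of 16, Tcf7 2 of 5 and Foxp1 23 of 47. The shares at Prdm1 (38.1%), Tbx21 and Tcf7 (40% each) were near the 37.98% of all effector regions with a gene. Zeb2 (65%) and Foxp1 (48.9%) lay above it, and Eomes (33.3%), Lef1 (31.25%) and Runx3 below.

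Counts at receptor genes also differed, though many rest on few regions, and 37.98% of all effector regions with a gene were effector-only. Cd28 had 9 of 15 effector regions effector-only (highest 37.4, 68739 bp from the gene) and Icos 6 of 13, and Cd69 (39.1) and Tnfrsf8 (33.7) were the other leaders among costimulatory receptors. Among inhibitory receptors, Btla (35.1), Ctla4 (28.7; 7 of 14) and Cd200 (25.4) led, Tox, a factor of exhausted cells, had 18 of 27 with none at 20 or more, and Pdcd1 and Havcr2 had 0 of 5 and 0 of 4. Il4ra (33.8), Il1rl1 (30.4) and Cish (29.6), a feedback inhibitor of cytokine signals, led the cytokine list, and Il2ra had 0 of 2. In receptor signalling Prkcq (44.3), Cd247 (40.3) and Lcp2 (36.9) were highest, and among chemokine receptors and integrins Ccr2 (33.6), Itgae (32.6) and Itgb1 (31.8). T cell identity genes were led by Ets1 and Thy1 (35.9 each) and Cd2 (30.3), while Cd8a and Cd8b1 had 0 of 2 and 0 of 3.

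The cell cycle list was led by D cyclins and their partner kinase: after Cdk6 came Ccnd2 (40.9) and Ccnd3 (30.7). Pfkp (27.4), a phosphofructokinase, Slc7a1 (25.6) and Eno1 (24.4), a glycolytic enzyme whose region lay at its start site, led the metabolic list, and Ldha and the glucose transporter gene Slc2a1 had 0 of 3 and 0 of 5. The promoter window of Eno1 also held another region. Among the lists of other cells, Fcgr1 (34.0), Zbtb46 (15.1) and Flt3 (13.3) led the myeloid list, Klra4 (36.9), Fcgr3 (30.9) and Klre1 the natural killer list, and Nrp1 (32.8), Ctla4 and Foxp3 (14.2) the CD4 and regulatory list. On the erythroid list, Kit (6.77) and Hba-a1 (5.08) were among the highest, both below 8.64.

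Other regions of the same genes moved in both directions between naive and effector cells. These regions are not effector-only, but they were measured in the same libraries, 1 per state, so they have no test. Over the 32333 regions called in both libraries, 14.6% were at least 2-fold higher and 6.10% at least 2-fold lower in the effector library, on log2(level + 1) after the median difference over all of them had been subtracted. That median was -0.71 (effector minus naive, log2). At genes with 3 or more effector-only regions, 19.2% of 10317 shared regions were 2-fold higher and 7.73% 2-fold lower, with a median difference of 0.14. At genes with no effector-only region, 9.79% of 11005 were higher and 4.30% lower, with a median of -0.13. The median effector level of these regions was 11.7 at the former genes and 16.2 at the latter. The part of level in these shares was not tested. The regions within 1 kb of an effector-only one had 22.9% higher and 9.78% lower.

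Against the mean of the 8 day 9 libraries the same genes again had more change of both kinds. Over 25916 regions called in all 9 libraries, 4.68% were 2-fold higher and 5.23% 2-fold lower in the effector library, around a median of -0.42 before centring. At genes with 3 or more effector-only regions these were 7.45% and 7.26%, and at genes with none 2.13% and 2.76%. The regions of the former had a median effector level of 14, those of the latter 18.7, and the part of level was not tested. Both comparisons share the effector library. Single genes differed widely: the shared regions of Cdk6 had a median difference of 2.66 from naive cells (6 regions) and 0.47 from day 9 cells (8 regions), those of Ifng 1.55 and 0.44 (8 regions each), and those of Gzmb 1.08 and -0.16 (4 each). Those of Bach2 had -0.24 (19 regions) and -0.15 (13 regions), and those of Prdm1 -0.60 (4 regions) and 0.05 (8 regions). The other sites of these genes were thus higher, lower or near the median, depending on the gene and the comparison. Of these genes, only Cdk6 and Bach2 were among those with the strongest effector-only regions. The shared regions of Cdk6 were higher in the effector library, and those of Bach2 were slightly below the median.

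At day 9, when effector-only regions have no called value, the regions around them were compared between the 5 YFP-high and the 3 YFP-low libraries, the only replicated groups. Limma, fitted to all 34383 regions called in the 8 libraries, called 113 regions more open in YFP-high cells (0.329%) and 1 less open (0.00291%), with Benjamini-Hochberg adjusted p under 0.05. Within 10 kb of an effector-only region lay 10578 of the tested regions, of which 47 (0.444%) were more open and 1 was less open. At an unadjusted p under 0.05, 616 (5.82%) were higher and 358 (3.38%) lower, against 4.75% and 3.32% of all tested regions. The median difference was 0.00 near effector-only regions and over all. The fit did not use the replicate numbers. With them as a block, 78 of the 10578 were more open and 4 less open, against 207 and 6 of all tested regions. The count of 47 depends on single libraries: it was 21 without high_to_high replicate 1, 29 without high_to_high replicate 2, 87 without low_to_low replicate 1, 10 without low_to_low replicate 2, 13 without low_to_low replicate 3 and 72 without low_to_high replicate 2. On the deposited scale, where the typical difference was -0.22 (log2, YFP-high minus YFP-low), 34 of the 10578 were more open and 585 less open, against 79 and 1943 of all 34383.

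The less open region near Loxl1 (chromosome 9, 58275206 to 58275487) lay 314 bp from an effector-only region with a level of 27.8 (58274720 to 58274892). It had 21.1 and 19.5 in high_to_high, 24.1, 26.4 and 19.7 in low_to_high and 36.3, 38.7 and 35.0 in low_to_low libraries, and 45.6 in the effector library. The YFP states did not overlap, and the YFP-low libraries lay nearer to the effector value. The difference was -0.49 ± 0.11 (log2, SE; limma adjusted p = 0.0287), and with cyclic loess no region near an effector-only one was called less open. The same count of 0 was found without high_to_high replicate 1 or 2 and without low_to_low replicate 2 or 3.

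The more open regions with the lowest p went the other way. In Fnip2, a gene of nutrient signalling, a region 746 bp from an effector-only one (level 6.30) had 30.8 and 27.1 in high_to_high, 31.9, 22.2 and 30.7 in low_to_high and 20.9, 14.0 and 13.1 in low_to_low libraries, and was not called in the effector library. Its difference was 1.03 ± 0.15 (SE; limma adjusted p = 0.000348). The region near Cd40lg, the gene of CD40 ligand, lay 1270 bp from an effector-only region of 7.52 and had 10.1, 10.6, 13.6, 12.1 and 8.40 in YFP-high against 5.78, 7.41 and 4.94 in YFP-low libraries, with 10.7 in the effector library. Regions at Nostrin and Cacna1d and a region without a gene on chromosome 19 (33265307 to 33265530) had effector-only neighbours of 6.20, 3.29 and 5.73, at 7022, 5724 and 1534 bp. At each of these 3, and at Fnip2 and Cd40lg, the YFP-high libraries all lay above the YFP-low ones. Over these 5 regions the differences were 0.85 to 1.19 (limma adjusted p 0.000348 to 0.00158).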

How the data were processed

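ATAC-seq peak lists of 11 libraries of mouse CD8 T cells were used. Per the file headers, the authors called peaks with HOMER findPeaks on each library alone, without a control. A peak had to pass an FDR of 0.001, to exceed the 10 kb around it 4-fold and to have a local p no higher than 1e-04. Bowtie2, HOMER 4.10, DESeq2 and build mm10 appear in the submitters' processing notes, and the use made of DESeq2 is not given in the sources used here. As signal, the authors deposited a normalized tag count for each peak, scaled to 10 M tags a library per the file headers. The authors' deposited findPeaks score, fold over local background (a ratio), local p-value and focus ratio (a fraction) were used to describe or filter peaks within a list.

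Peaks on the autosomes and the X chromosome were merged where they overlapped by at least 1 bp (111041 regions, also with bedtools 2.31.1), and a region took its highest peak in each library. Each region was given the closest protein-coding gene span up to 100 kb away (RefSeq, GRCm38.p6; the table has no strand). The table held all genes of the 18 lists. Genes are named by fixed rules: the 15 highest regions with a gene, the 10 genes with the most regions and the 10 with the most inside the gene per 100 kb of span (at least 5), the 3 highest genes of each list, the 8 highest promoters, and the 5 lowest p of each direction near effector-only regions at day 9. Some genes that these rules name are not reported here. Other genes of the lists are named with their counts and were picked after their values were seen. Motifs were searched on both strands of the RefSeq promoter windows only. Regions elsewhere have no sequence here.

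Day 9 groups were compared with limma 3.58.1 in R 4.3.3 (eBayes, trend) after log2(level + 1) and centring of each library on its median. Tested on simulated data, 91.5% of 200 regions of 34383 changed 2-fold were called, with 1.08% false calls. The simulated libraries varied independently and held no smaller changes, so these rates need not hold for the measured libraries. The spread between replicates may be technical, since their origin is not given. The regions and gene lists were chosen with earlier results of these data known. Alternatives changed the merging distance, peak filters, pseudocount, centring, distances and libraries.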

Additional observations from a re-analysis of the deposited data

Results flagged for a closer look

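Among the 5 YFP-high libraries of day 9, high_to_high replicate 2 stood apart from the others in 3 of 9 sets of values checked, by the gap between it and its nearest neighbour. It held 4.175% of its regions alone, against 0.715 to 1.51% in the other 4. Of its regions of at least 20 it held 1.461% alone, against 0.071 to 0.348%. It held 13.36% of the effector regions found in neither splenocyte list, against 7 to 7.97%. This library was the deepest (59.97 M tags), and its peak windows were 136 bp wide, against 172 bp in the effector library. The part of depth and window width in these values was not tested. Chance flags about 1 in 20 such sets.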

How the results depend on the processing

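The number of effector-only regions stayed within 1.5 times of 25997 under 14 of 15 alternatives, among them leaving each other library out of the rule (26050 to 26532), and was 15025 with only effector peaks of at least 6-fold over local. Those close to the limit numbered 1205 with a smaller factor than 1.5 and 8934 below 2 times the weakest effector peak. With regions of at least 8.64 only, 56.88% lay inside a gene and 92.08% had a gene within 100 kb; 84.2% of all had one within 50 kb. The share of 2-fold higher regions was 21.5% at genes with at least 5 effector-only regions and 12.3% with a pseudocount of 5, where it was 8.55% over all regions (14.6% in the main setting). Near effector-only regions, leaving out 1 library gave 10 to 87 more open and 0 to 5 less open regions at day 9. More open regions numbered 27 within 5 kb and 100 within 50 kb. Less open ones numbered 3 with a pseudocount of 5, 585 without centring and 0 with cyclic loess. The replicate block gave 78 more open and 4 less open regions. The numbers were not shown to pair all the libraries. Same-numbered low_to_low and low_to_high libraries deviated together (correlations of 0.30, 0.14 and 0.16, against -0.19 to 0.02 between different numbers). Same-numbered pairs with high_to_high did not (-0.0407 to -0.0012). The main limits are the single effector library, peak lists without values below the calling limit, and sequence at promoters only.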
